A study of Mus musculus with 2 samples.

Results

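The mouse zinc finger genes numbered Zfp700 to Zfp999 were taken from a table of allele-specific nuclear RNA in mouse embryonic stem (ES) cells. Members were the rows named Zfp with a number of 3 digits that starts with 7, 8 or 9, leaving out chromosomes 10 and 17. This gave 105 of 48550 rows. The cells were F121-6, a female hybrid line with 1 set of chromosomes of the 129 strain and 1 of *Mus musculus castaneus* (cas), grown with LIF on mouse embryonic fibroblasts treated with mitomycin C. They form a single group of 2 libraries, with no treatment and no second genotype, so the comparison is 129 against cas within each library. F121-6 is a single line, and whether the libraries stem from separate cultures is not stated, so p-values measure the spread between these libraries, which may be technical.

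Most of these genes encode proteins with arrays of C2H2 zinc fingers, each a small zinc-bound fold that contacts DNA. Many also carry a KRAB box, which binds the corepressor TRIM28 and through it brings in the histone methyltransferase SETDB1, so that the bound DNA is packed into silent chromatin. Such genes lie in tandem arrays that expand and change quickly between strains and species, and in ES cells they are known for silencing endogenous retroviruses. In the annotation (GENCODE M21, mm10), 103 members had a coding sequence, with a median of 11 C2H2 fingers and a range from 0 to 23. A finger was counted where 2 cysteines with 2 to 4 residues between them were followed after 12 residues by 2 histidines with 3 to 5 residues between them. The core of the KRAB A box was found in 67 of the 103. Zfp783 and Zfp939 are annotated as pseudogenes.

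Members were chained into a genomic cluster where the centres of neighbouring members' deposited windows lay within 1 Mb. These centres were within 100 bp of the annotated start for 96 of the 105. The 11 clusters of at least 3 members held 69 of the 105. Promoters of 3 clusters are shown because the allele ratios described below ran one way on chromosome 2, the other way on chromosome 4 and both ways on chromosome 7. Each window is RefSeq sequence of GRCm38.p6, from 250 bases before to 50 after the start, and 88 of the 105 members had one. Capitals mark CCAAT on either strand (ATTGG on the other) and, on chromosomes 2 and 7, CTGCCAGTCAGAA, the longest run that a search found in all 7 windows. In Zfp977 that run overlaps an ATTGG.

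The windows of the chromosome 2 cluster lie at chr2:177464492-177464791 (Zfp970, plus strand), chr2:177925601-177925900 (Zfp972, minus strand), chr2:178023034-178023333 (Zfp971, plus strand) and chr2:178078376-178078675 (Zfp931, minus strand).
Zfp970: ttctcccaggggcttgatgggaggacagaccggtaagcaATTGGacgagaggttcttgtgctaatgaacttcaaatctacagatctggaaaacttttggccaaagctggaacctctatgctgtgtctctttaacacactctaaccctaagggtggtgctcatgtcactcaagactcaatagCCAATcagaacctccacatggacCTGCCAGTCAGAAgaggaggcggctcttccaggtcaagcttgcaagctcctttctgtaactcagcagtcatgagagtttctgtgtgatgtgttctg
Zfp972: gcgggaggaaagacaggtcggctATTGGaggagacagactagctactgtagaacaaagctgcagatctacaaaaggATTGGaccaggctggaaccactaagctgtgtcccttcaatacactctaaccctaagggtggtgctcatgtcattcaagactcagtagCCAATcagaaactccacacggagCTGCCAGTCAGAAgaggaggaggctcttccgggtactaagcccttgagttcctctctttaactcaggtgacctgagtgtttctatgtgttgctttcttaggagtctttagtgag
Zfp971: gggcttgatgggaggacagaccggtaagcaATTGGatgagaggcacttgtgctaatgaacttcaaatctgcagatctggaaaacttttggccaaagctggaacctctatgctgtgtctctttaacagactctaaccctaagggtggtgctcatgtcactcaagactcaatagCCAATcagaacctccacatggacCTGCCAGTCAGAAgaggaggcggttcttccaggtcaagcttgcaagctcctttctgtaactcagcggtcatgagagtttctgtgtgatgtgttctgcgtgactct
Zfp931: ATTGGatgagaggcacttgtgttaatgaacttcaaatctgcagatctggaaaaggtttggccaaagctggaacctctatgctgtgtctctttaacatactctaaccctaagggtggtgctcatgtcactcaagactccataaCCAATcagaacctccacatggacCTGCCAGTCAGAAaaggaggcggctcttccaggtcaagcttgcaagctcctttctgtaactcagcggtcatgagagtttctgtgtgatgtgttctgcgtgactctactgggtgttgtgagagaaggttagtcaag

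Those of chromosome 7 lie at chr7:42592496-42592795 (Zfp977), chr7:42642555-42642854 (Zfp976) and chr7:42692669-42692968 (Zfp975), all on the minus strand.
Zfp977: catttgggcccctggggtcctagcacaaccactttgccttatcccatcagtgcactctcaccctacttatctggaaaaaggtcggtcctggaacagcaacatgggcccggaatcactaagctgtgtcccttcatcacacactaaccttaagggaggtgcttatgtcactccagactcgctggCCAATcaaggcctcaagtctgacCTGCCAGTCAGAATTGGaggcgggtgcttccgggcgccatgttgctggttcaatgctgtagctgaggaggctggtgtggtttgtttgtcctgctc
Zfp976: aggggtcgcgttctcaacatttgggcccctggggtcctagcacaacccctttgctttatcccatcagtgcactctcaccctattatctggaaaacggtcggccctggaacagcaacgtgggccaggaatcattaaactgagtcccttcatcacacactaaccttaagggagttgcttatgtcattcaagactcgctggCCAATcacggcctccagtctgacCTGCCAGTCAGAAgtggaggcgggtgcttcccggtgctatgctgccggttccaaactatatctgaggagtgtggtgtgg
Zfp975: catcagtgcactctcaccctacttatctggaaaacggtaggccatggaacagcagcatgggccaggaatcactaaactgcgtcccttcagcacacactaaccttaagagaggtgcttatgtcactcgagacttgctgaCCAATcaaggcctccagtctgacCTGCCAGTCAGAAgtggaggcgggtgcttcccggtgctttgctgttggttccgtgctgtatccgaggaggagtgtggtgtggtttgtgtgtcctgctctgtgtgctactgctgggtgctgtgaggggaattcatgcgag

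For chromosome 4, Zfp985 (chr4:147553027-147553326, plus strand) and Zfp984 (chr4:147809739-147810038, minus strand) are shown, with capitals for CCAAT or ATTGG and for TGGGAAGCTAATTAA, the longest run shared with Zfp987 and Zfp979. In Zfp984 the run overlaps an ATTGG.
Zfp985: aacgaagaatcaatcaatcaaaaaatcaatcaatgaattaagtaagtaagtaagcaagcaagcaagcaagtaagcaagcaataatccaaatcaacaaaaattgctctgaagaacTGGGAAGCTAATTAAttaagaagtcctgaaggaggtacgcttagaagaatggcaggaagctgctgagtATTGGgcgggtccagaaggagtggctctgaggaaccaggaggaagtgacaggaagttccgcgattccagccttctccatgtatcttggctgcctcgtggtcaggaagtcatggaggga
Zfp984: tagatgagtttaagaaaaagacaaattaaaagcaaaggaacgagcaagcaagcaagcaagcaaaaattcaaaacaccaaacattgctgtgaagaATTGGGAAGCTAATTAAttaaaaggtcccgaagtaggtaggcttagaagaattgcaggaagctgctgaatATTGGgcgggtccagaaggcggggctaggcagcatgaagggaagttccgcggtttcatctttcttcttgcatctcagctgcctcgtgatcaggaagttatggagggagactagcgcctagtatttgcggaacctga

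Only chosen members were aligned: those shown above, with Zfp987 and Zfp979 added on chromosome 4. Other members of these clusters with a window, such as Zfp982 and Zfp936, were left out. Aligned end to end, the chromosome 2 windows were 69.1% to 91.9% identical to each other (6 pairs). The range was 68.9% to 85.1% on chromosome 4 (6 pairs) and 60.1% to 80.8% on chromosome 7 (3 pairs). Between chromosomes 2 and 7 the identity was 52.4% to 65.1% (12 pairs), a range that overlaps the one within chromosome 7. It was 47.6% to 53% between chromosomes 2 and 4 (16 pairs) and 44.5% to 53.3% between 7 and 4 (12 pairs). CCAAT on either strand stood in the windows of 59 of the 88 members, and in 37.4% of all 32851 windows of the table. CTGCCAGTCAGAA on either strand stood in 14 member windows and in 0.164% of all windows, and the chromosome 4 run in 8 and in 0.0365%. The runs were picked from these windows, so their counts are a description.

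The libraries held 15300476 and 17006241 reads from 129 and 13223268 and 14396524 from cas. A gene was tested where each library had at least 20 allele reads, 129 and cas together. Ratios are log2(129/cas) of CPM, each allele's reads scaled by its column, plus 0.1, after scaling each column to the typical gene, so a positive value is higher from 129 relative to that gene. Pairs of read numbers below are libraries 1 and 2 in that order. A gene with equal reads from the alleles thus has a negative ratio, as Zfp830 shows below. The feeder fibroblasts' nuclear RNA may be in the libraries, and their strain is not stated. Of 10 fibroblast marker genes, 8 were tested and 6 were higher from 129, 75% against 21.9% of all tested genes. Of their summed reads, 77.4% and 76.6% came from 129 in libraries 1 and 2. Col5a1 gave the most of these, with 2396 and 2424 from 129 against 891 and 1023 from cas. Other markers were nearly all 129, such as Col1a2 with 528 and 783 against 4 and 15. Log2 ratios were 4.51 to 6.29 for Dcn, Col1a1, Col1a2 and Col3a1, and 1.01 and 0.93 for Col5a1 and Fbn1. Pdgfrb and Thy1 were not called. Lum was listed at 0 in all columns and Postn had 9 reads, all in library 1. The part of feeder RNA in the ratios below was not tested. Of 8 ES cell markers 7 were tested: 1 was higher from 129, 3 from cas and 3 neither way (21.9% and 22% of all tested genes were higher from 129 and cas). Of the markers' summed reads, 53.3% and 53.9% came from 129. Sox2, a core pluripotency gene, was listed at 0 in all columns, so a 0 in this table cannot be read as an absent transcript.

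Reads were present for 86 of the 105 members, 75 passed the filter, 11 had 1 to 54 reads over both libraries without passing, and 19 were listed at 0 in every column. The filter is on the sum of the alleles, but a gene read from only 1 allele passes it through that allele alone. Among the 11 were Zfp703, which encodes a transcriptional corepressor, with 4 and 5 reads from 129 and 0 from cas, and Zfp711, a partner of the histone demethylase PHF8 and the only member on the X chromosome, with 5 and 1 reads of the 129 allele against 31 and 17 of the cas allele.

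Of the 19 members at 0, 5 lay in the chromosome 2 cluster of 10 members and 8 in the chromosome 4 cluster of 16. The median share of 100-base stretches of a member's transcripts that also occur in transcripts of another gene was 60.5% for the 19 at 0, against 0.94% for the 75 tested. Of the 16 members with at least 40% shared sequence, 13 were at 0, among them Zfp967 and Zfp969 with 100%. Zfp935, Zfp986 and Zfp987 were tested in spite of 99.3%, 70.0% and 70.8%. Another gene here means any other annotated gene on either strand, also one that overlaps the member at the same place. For Zfp708, Zfp784 and Zfp935 the gene that shared most was such an overlapping gene. Their shares therefore do not measure likeness to a gene elsewhere. A 0 also occurred with little shared sequence, as for Zfp750, an epidermal differentiation factor (0%), and Zfp882 (0.34%). Zfp784 and Zfp865 overlap on opposite strands and were both at 0. The stretch length equals the read length in the labels; introns were not searched, and how reads with more than 1 match were handled is not known here.

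**Figure D1:**
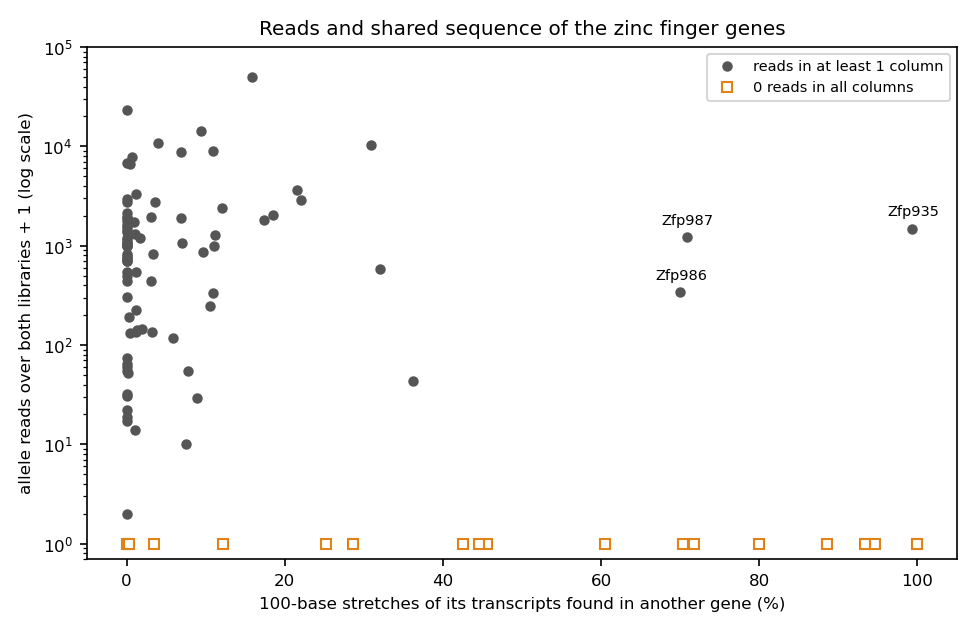
Allele reads over both libraries plus 1 (log scale) against the share of 100-base stretches of each member's transcripts found in another gene, for all 105 members. Open squares are the 19 members at 0 reads, of which 13 have at least 40% shared sequence; Zfp935, Zfp986 and Zfp987 are the members with reads above that share.

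Of the 75 tested members, 45 (60%) were called by limma, with adjusted p-values under 0.05 over 15509 genes: 20 higher from 129 and 25 from cas. Over all tested genes the share was 43.9%, with 21.9% higher from 129 and 22% higher from cas, against 26.7% and 33.3% of the members. The size of the difference was at least 2-fold for 18 called members (24% of those tested, background 17.3%), 10 of them higher from 129 and 8 from cas (background 10.6% and 6.67%). Tested members had a median of 1069 reads over both libraries against 844 for all tested genes. Among the other zinc finger genes, Zfp1 to Zfp699, 33 of 179 were higher from 129 and 36 from cas (38.5% in all), with a median log2 ratio of -0.03. The median over the members was -0.13, from -0.05 in library 1 and -0.18 in library 2, and that over all tested genes lay at 0.00 by the scaling. Within the members, 32 of 49 with a KRAB core and 12 of 24 without were called (43.9% over all tested genes). Their median reads were 1367 and 905. With 1 shared library size for both alleles, 16 with a core were called toward 129 and 10 toward cas. Without a core these were 12 and 2, so the higher share with a core did not hold under that scaling. The difference was not tested.

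The split of directions depended on the scaling, and so did the excess over all tested genes. With 1 shared library size for both alleles, which moves the median of all genes to 0.32, 29 of the 75 tested members were higher from 129 and 12 from cas (background 51.6%, made up of 41.9% and 9.62%). The members' share called was then close to the background. Their share toward 129 lay below it and that toward cas above it. With the column totals as deposited there were 25 and 17 (43.6%, made up of 27% and 16.6%). Exact binomial tests against the 129 share of each library, passed in both with the same sign, gave 23 and 19 (45.3%, made up of 27.7% and 17.7%); they cover counting error only. Leaving out the pairing of the alleles by library (no block) left 12 and 14 (25.5%, made up of 13.9% and 11.6%). The 19 members that then lost the call were Zfp715, Zfp777, Zfp747, Zfp825, Zfp937, Zfp941, Zfp949 and Zfp972 of those higher from 129, and Zfp710, Zfp738, Zfp748, Zfp809, Zfp819, Zfp827, Zfp850, Zfp932, Zfp936, Zfp954 and Zfp979 of those higher from cas. Tested against a difference of 1.5-fold rather than 0, 7 were higher from 129 and 5 from cas (12.8%, made up of 7.66% and 5.12%). All 45 called members had the same sign in each library, but those libraries also gave the calls.

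**Figure D2:**
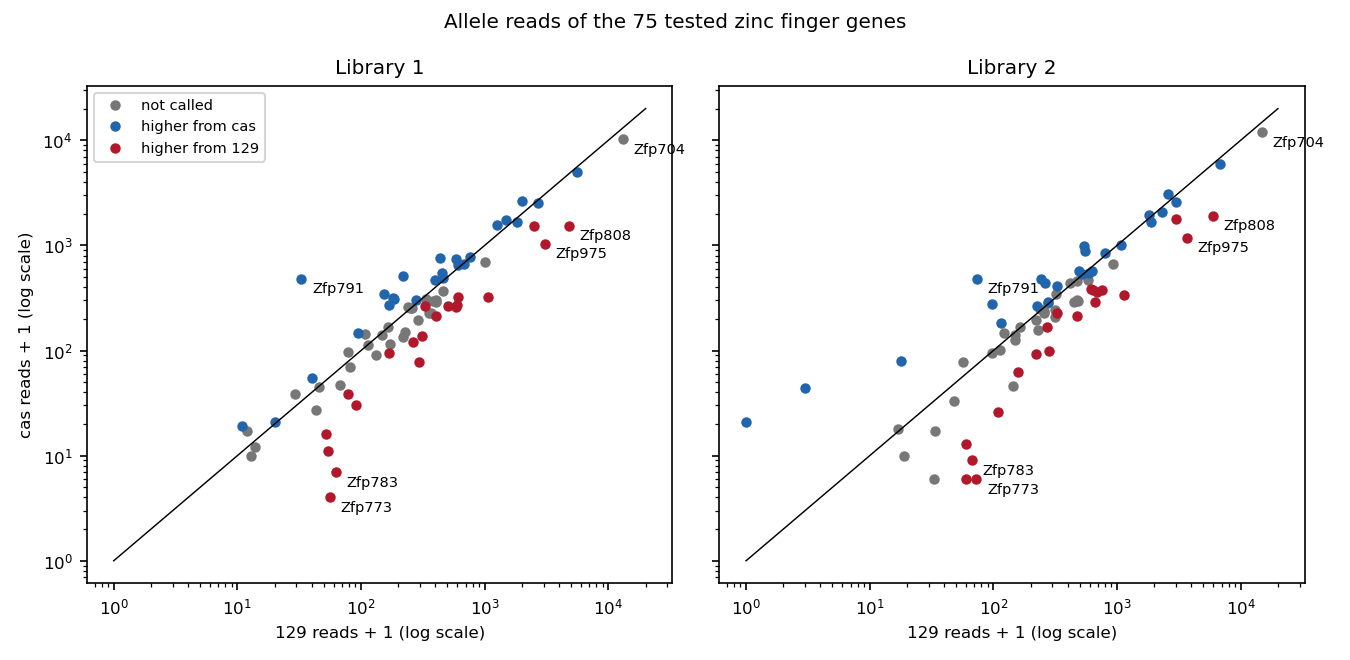
Reads from cas against reads from 129 for the 75 tested members in library 1 (left) and library 2 (right), both plus 1 and on log scales; the line marks equal reads. Zfp791 lies far above the line and Zfp773, Zfp783 and Zfp808 below it in each library, while Zfp704, with the most reads, lies close to it.

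The fitted ratio farthest from 0 was that of Zfp791 on chromosome 8 (85108553 to 85123095), whose protein has 15 fingers; with 1 shared library size that of Zfp773 lay farther (3.58 against -3.27). It had 32 and 73 reads of the 129 allele against 483 and 479 of the cas allele in libraries 1 and 2. The cas reads were nearly equal in the libraries and the 129 reads differed, so that its log2 ratio was -4.15 in library 1 and -3.04 in library 2. The fitted ratio was -3.60 (SE 0.24, adjusted p = 2.7e-49 in limma), 12.1-fold toward cas. None of its transcripts' 100-base stretches occurred in another gene's transcripts, but its span overlaps Gm23388 on the same strand and Gm45317 on the other. In all, 29 members overlap a gene on the same strand and 36 one on the opposite strand. Strand does not tell reads apart in a same-strand overlap, and in an opposite-strand overlap it does so only where it was used. Another gene outside clusters on chromosome 8, Zfp958 (4613167 to 4630231), had 217 and 241 reads of the 129 allele against 513 and 473 of the cas allele. Its ratio was -1.43 (SE 0.16).

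The largest number of 129 reads above cas among called members belonged to Zfp808, a gene with 22 fingers at the edge of a cluster of 3 on chromosome 13 (window centres 62129915 to 62520544). It had 4773 and 5965 reads of the 129 allele against 1532 and 1914 of the cas allele, so each 129 value was above each cas value. Its log2 ratio was 1.31 (SE 0.07, adjusted p = 7.5e-83 in limma), with 1.34 and 1.28 in the libraries. Its neighbour Zfp934 went the other way, with 152 and 96 reads of the 129 allele against 345 and 278 of the cas allele and a ratio of -1.67 (SE 0.21). Zfp935, between them, had 404 and 478 against 304 and 292 and was not called (0.23, 95% interval -0.08 to 0.54). The annotated spans of Zfp934 and Zfp935 overlap on the same strand, so the division of reads between these genes is uncertain.

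On chromosome 2 (window centres 174643533 to 178078425) all 4 tested members were higher from 129 (21.9% over all tested genes). Every 129 count exceeded every cas count of the same gene. Deletion of this array in mouse ES cells has been linked in earlier work to activation of retroviral elements. Zfp971 had 1056 and 1141 reads of the 129 allele against 320 and 335 of the cas allele, a log2 ratio of 1.41 (SE 0.12, adjusted p = 2.4e-28 in limma). Zfp970, whose promoter window was the most like that of Zfp971 among those aligned (91.9% identical), had 586 and 668 against 260 and 286, a ratio of 0.87 (SE 0.15). Zfp931 had 598 and 693 against 270 and 356 (0.72, SE 0.14), and Zfp972 168 and 221 against 94 and 92 (0.71, SE 0.26). Without the block, the adjusted p of Zfp972 was 0.077. The other 6 members of the cluster were not tested, 5 of them at 0.

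The other genes of the interval were called both ways. Of 32 further tested genes between the outer members, 10 were higher from 129 and 13 from cas, with a median of -0.35, and the difference from the members was not tested. Of other genes, 10 tested ones hold ACTCTAACCCTAAGGGTGGTGCTCATGTCA, the 30-base run common to the 4 promoters shown (0.1% of all windows): 3 of these went toward 129, 4 toward cas and 3 neither way.

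The chromosome 4 cluster (window centres 145510758 to 147848366) ran the other way. Of its 8 tested members 5 were called toward cas (22% over all tested genes), 0 toward 129 and 3 neither way. This array, too, has been deleted in earlier work on retroviral silencing in ES cells. Zfp990 had 434 and 540 reads of the 129 allele against 759 and 991 of the cas allele, a log2 ratio of -1.17 (SE 0.12, adjusted p = 6.1e-21 in limma). Zfp985 had 181 and 261 against 313 and 437 (-1.09, SE 0.18). In both genes the cas count was the higher in each library by a similar factor. Zfp987 had 184 and 325 against 306 and 406 (-0.85, SE 0.17), with 70.8% of its transcript stretches shared with other genes.

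Zfp984, the most abundant tested member of the array in reads, had 2009 and 2588 from 129 against 2667 and 3067 from cas (-0.66, SE 0.07). The weakest call of the array was Zfp979, with 765 and 1073 against 773 and 1007 (-0.29, SE 0.10), whose reads were close to equal and whose ratio turned to 0.04 with 1 shared library size. Its adjusted p without the block was 0.2 in limma. Zfp982 (-0.59, 95% interval -1.15 to -0.03, adjusted p = 0.08), Zfp986 (-0.18, -0.81 to 0.45) and Zfp933 (0.05, -0.39 to 0.49) were not called by limma. Among 10 further tested genes of the interval, 1 was higher from 129 and 3 from cas, with a median of -0.34. The 1018 other tested genes of chromosome 4 had a median of -0.11, with 152 higher from 129 and 274 from cas.

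In the second cluster on chromosome 13 (window centres 67061170 to 67683467), all 4 tested members were called higher from cas (22% over all tested genes). So were 9 of the 17 other tested genes between them, with 0 higher from 129 and a median of -0.79. The members' ratios were -1.60 for Zfp712 (SE 0.45), -0.97 for Zfp759 (SE 0.26), -0.52 for Zfp748 (SE 0.18) and -0.31 for Zfp738 (SE 0.12). Zfp759 had 94 and 115 reads of the 129 allele against 147 and 181 of the cas allele, a like difference in each library. Zfp712 had 39 and 17 against 54 and 79, and its ratio of -0.74 in library 1 and -2.46 in library 2 shows how far the libraries differed. The 2 weakest rest on scaling or pairing. With 1 shared library size, Zfp748 was -0.20 (adjusted p = 0.39) and Zfp738 turned to 0.01, and without the block neither was called by limma (adjusted p = 0.15 and 0.26).

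**Figure D3:**
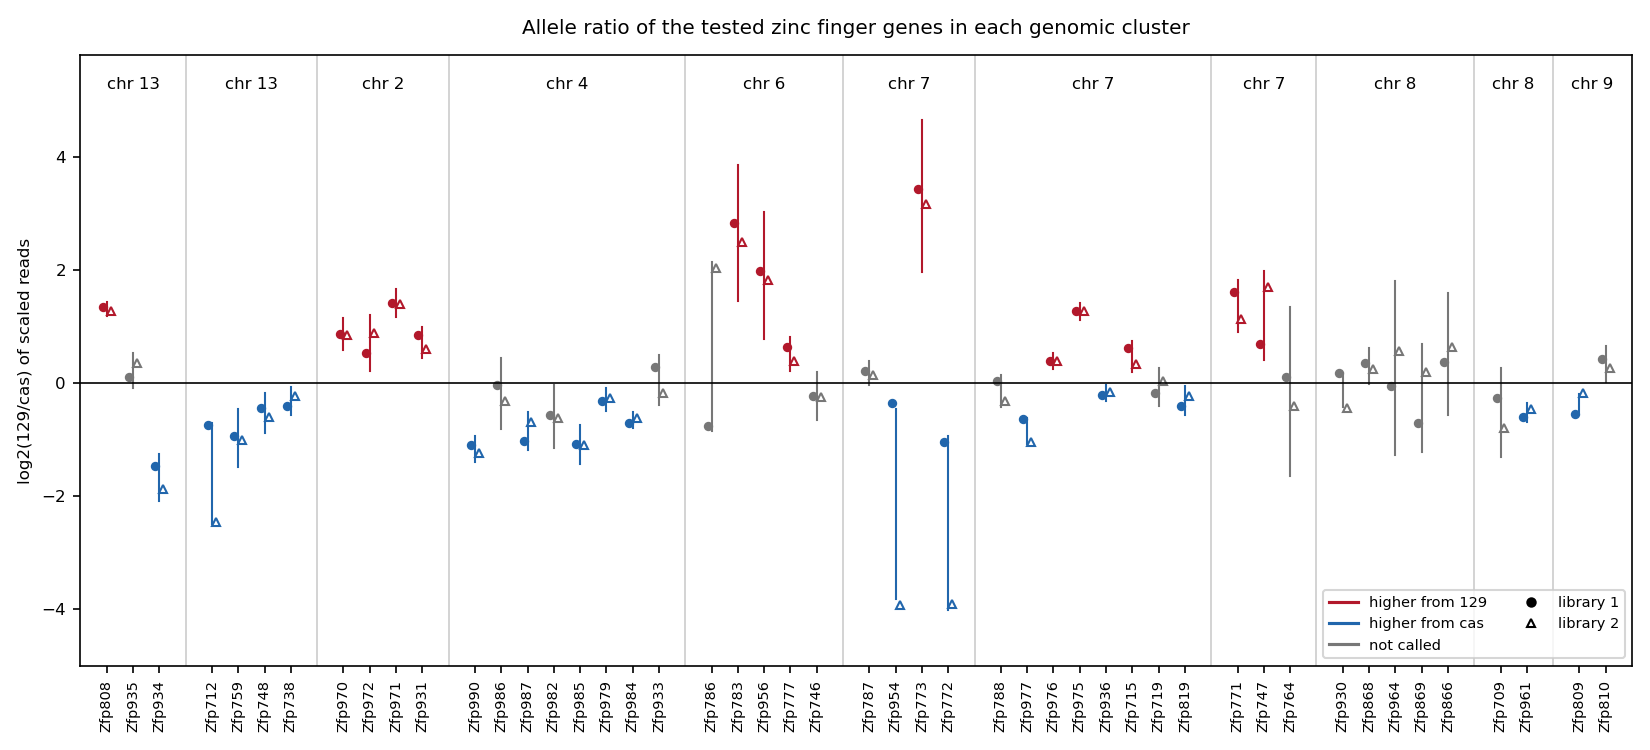
Log2(129/cas) of the 48 tested members in the 11 genomic clusters, in chromosomal order within each; circles are library 1, triangles library 2 and bars 95% intervals of the fitted ratio. The 4 members on chromosome 2 lie above 0, the called members of chromosome 4 and of the second chromosome 13 cluster below it, and the middle chromosome 7 cluster on both sides.

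The largest cluster of chromosome 7 (window centres 41633576 to 43607224) held 8 members, all tested: 3 called toward 129, 3 toward cas and 2 uncalled. Over all tested genes 21.9% were called toward 129 and 22% toward cas. The 3 genes whose promoters are shown lie side by side and did not all go the same way. Zfp975 had 3064 and 3662 reads of the 129 allele against 1035 and 1178 of the cas allele, a log2 ratio of 1.27 in each library (SE 0.08, adjusted p = 3.2e-57 in limma). Next to it, Zfp976 had 2498 and 2991 against 1535 and 1781 (0.40, SE 0.08). Zfp977, the third of the row, had 584 and 553 against 742 and 892 (-0.84, SE 0.12). So 129 reads were the higher in each library for Zfp975 and Zfp976, and cas reads for Zfp977. Zfp715 had 0.47 (SE 0.14; adjusted p = 0.07 without the block in limma), while Zfp936 (-0.18, SE 0.07) and Zfp819 (-0.31, SE 0.13) were called toward cas and turned to 0.15 and 0.01 with 1 shared library size. Without the block their adjusted p-values were 0.29 and 0.2 in limma. The 15 other tested genes of the interval were even, with 4 called each way and a median of -0.02.

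Near the start of the same chromosome, in a cluster of 4 (window centres 6155971 to 7209998), ratios were larger and rested on few reads. Zfp773 had 55 and 72 reads of the 129 allele against 3 and 5 of the cas allele, a ratio of 3.30 (SE 0.69, adjusted p = 8.4e-06 in limma). Zfp772 had 10 and 2 against 18 and 43 (-2.47, SE 0.78), and Zfp954 19 and 0 against 20 and 20 (-2.14, SE 0.86). The libraries were alike for Zfp773 (3.44 and 3.17) and unlike for the other genes, with -1.04 and -3.90 for Zfp772 and -0.35 and -3.93 for Zfp954. The differences of Zfp772 and Zfp954 lay mostly in library 2, and without the block Zfp954 had an adjusted p of 0.16 in limma. The SE given by limma here is shared between genes of like abundance and does not show such a difference. Zfp787, with 997 and 935 reads of the 129 allele against 701 and 657 of the cas allele, was not called (0.18, 95% interval -0.03 to 0.39), but was with 1 shared library size (0.51). The 17 other tested genes of the interval had a median of 0.14, with 6 higher from 129 and 2 from cas.

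Chromosome 6 held a cluster of genes around Zfp746 (window centres 47830867 to 48602062), with 3 of 5 tested members higher from 129 (21.9% over all tested genes) and 2 not called. The 9 other tested genes of the interval had a median of 0.27, with 3 higher from 129 and 1 from cas. Zfp783 had 62 and 66 reads of the 129 allele against 6 and 8 of the cas allele (2.66, SE 0.61), and Zfp956 53 and 59 against 10 and 12 (1.90, SE 0.57). These 2 overlap on the same strand, so their reads may be the same transcripts in part. Zfp777 had 404 and 635 against 210 and 376 (0.52, SE 0.15; adjusted p = 0.15 without the block in limma). Zfp746, which encodes the parkin substrate PARIS, had 147 and 256 against 140 and 235 (-0.23, 95% interval -0.65 to 0.19). Zfp786 was not called and its libraries had opposite signs, -0.76 and 2.04.

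At the far end of chromosome 7 (window centres 127244273 to 127406822), Zfp771 had 292 and 281 reads of the 129 allele against 77 and 99 of the cas allele (1.37, SE 0.23) and Zfp747 77 and 108 against 38 and 25 (1.20, SE 0.40; adjusted p = 0.053 without the block in limma), while Zfp764 had too few reads to narrow its interval (-0.15, -1.65 to 1.35). The 5 other tested genes there had a median of 0.47, with 1 higher from 129 and 0 from cas. In the first cluster of chromosome 8 (window centres 69209037 to 69791178), 5 members were tested and 0 were called by limma, also 0 at an unadjusted p under 0.05, while the exact binomial tests and 1 shared library size each called 1. Its member with most reads, Zfp930, had 401 and 413 against 289 and 436 (-0.13, 95% interval -0.43 to 0.17), with opposite signs in the libraries. In the second (window centres 71882018 to 71951090), Zfp961 had 1261 and 1828 against 1551 and 1939 (-0.52, SE 0.08) and Zfp709 was not called.

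Zfp809 on chromosome 9 (22225714 to 22243354) encodes the KRAB protein that binds the primer binding site of murine leukaemia virus and silences it in ES cells. It had 1490 and 1890 reads of the 129 allele against 1758 and 1653 of the cas allele, so the allele with more reads was not the same in each library. Its log2 ratio was -0.54 in library 1 and -0.17 in library 2, and the fitted value of -0.35 (SE 0.08, adjusted p = 8.4e-05 in limma) moved to -0.02 with 1 shared library size. Without the block its adjusted p was 0.08. Zfp810, in the same cluster, had 0.34 (95% interval 0.02 to 0.66) and was not called, but was with 1 shared library size (0.67). Zfp932, a repressor of ERVK retroviral elements on chromosome 5, had 452 and 522 against 540 and 532 (-0.47, SE 0.13), with an adjusted p of 0.063 without the block in limma and -0.14 with 1 shared library size.

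Several members outside clusters were called. Zfp937 on chromosome 2 had 90 and 156 reads of the 129 allele against 29 and 61 of the cas allele (1.14, SE 0.35; adjusted p = 0.062 without the block in limma), and Zfp951 on chromosome 5 504 and 761 against 267 and 375 (0.64, SE 0.14). Zfp974 on chromosome 7 was higher from cas with 168 and 274 against 272 and 289 (-0.71, SE 0.19; -0.38 and not called with 1 shared library size). Zfp706, which acts on the exit of ES cells from self-renewal, had 394 and 494 against 468 and 566 (-0.55, SE 0.14, from -0.54 and -0.55), and was not called with 1 shared library size (-0.22). Among these, the libraries were most alike for Zfp706 and Zfp951 and least for Zfp974. Zfp800, with 51 and 59 against 15 and 5 (2.14, SE 0.60), Zfp825, Zfp941, Zfp949 and Zfp850 were the other called members outside clusters apart from those named elsewhere, and were listed after their values were seen. The ratio of Zfp800 was 1.40 in library 1 and 2.89 in library 2. Zfp825 had 0.00 in library 1 and 0.81 in library 2. Zfp850 had near even reads, 674 and 793 of the 129 allele against 661 and 844 of the cas allele. Its ratio of -0.36 (SE 0.11) moved to -0.03 with 1 shared library size and was then not called.

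Zfp704 and Zfp710 had the most reads of all members and were close to even. Zfp704 on chromosome 3 had 13070 and 14823 reads of the 129 allele against 10181 and 11941 of the cas allele, and its log2 ratio of 0.01 had a 95% interval of -0.08 to 0.09; with 1 shared library size it was 0.34 and called toward 129. Zfp710 had 5607 and 6740 against 4951 and 5953. Its ratio of -0.15 (SE 0.05) was called toward cas although its 129 reads were the more numerous, and it turned to 0.18, a call toward 129, with 1 shared library size. Without the block its adjusted p was 0.31 in limma. Zfp827, an adaptor of the NuRD complex at telomeres, had 1816 and 2328 against 1650 and 2080 (-0.18, SE 0.08) and turned to 0.15 with 1 shared library size; its adjusted p without the block was 0.32 in limma. Zfp830, which encodes a spliceosome-associated factor, had 113 and 113 against 113 and 100 (-0.24, 95% interval -0.79 to 0.32), and Zfp740 381 and 586 against 295 and 472 (0.01, -0.27 to 0.30). Neither was called, but with 1 shared library size Zfp740 was, toward 129 (0.34, adjusted p = 0.044 in limma).

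**Figure D4:**
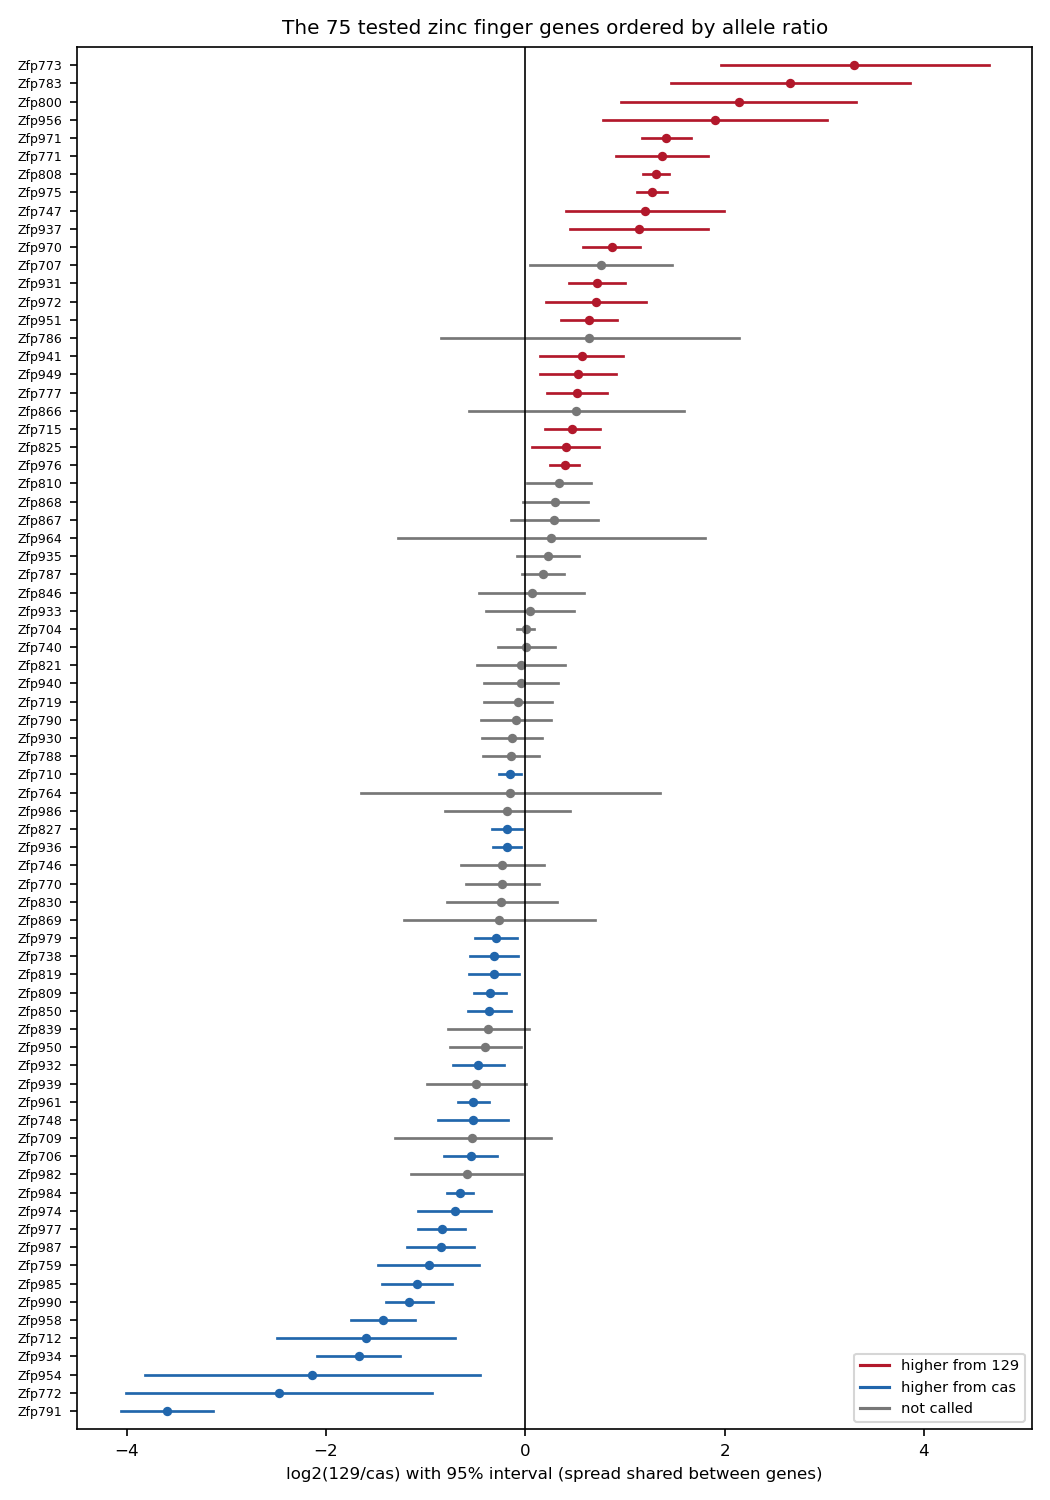
Log2(129/cas) of the 75 tested members in order, with 95% intervals; 20 are called higher from 129 (red) and 25 higher from cas (blue). The ratios run from -3.60 for Zfp791 to 3.30 for Zfp773, and the narrowest interval is that of Zfp704 at 0.01.

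KRAB factors act through corepressor proteins, and the nuclear RNA of the genes encoding them was read in the same way. Of 25 corepressor and heterochromatin genes, 24 were tested: 6 were called toward 129, 8 toward cas and 10 neither way (58.3% called, background 43.9%). These directions are relative to the typical gene. Some genes called toward cas, such as Atrx, had more 129 than cas reads in each library. The median log2 ratio of the list was -0.09 and the median size of the ratio 0.19, against 0.51 for the members and 0.40 for all tested genes. These genes had a median of 8410 reads over both libraries, against 1069 for the members. Trim28 had 2053 and 2137 reads of the 129 allele against 2087 and 1845 of the cas allele (-0.23, SE 0.08) and turned to 0.09 with 1 shared library size. Setdb1 had 1637 and 1754 against 1321 and 1574 (-0.10, SE 0.08) and was not called. The largest ratio in the list was 1.40 (SE 0.10) for the histone deacetylase gene Hdac2. With 1 shared library size, 15 of the list were higher from 129 and 0 from cas (background 41.9% and 9.62%).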

How the data were processed

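Total nuclear RNA was sequenced as strand-specific 100 bp paired-end libraries, earlier libraries being re-sequenced and merged, per the labels' protocols. Bowtie2 and mm10 are named per the submitters' processing notes; the counter, SNP set, annotation and strand setting are not named in what was used here. The authors deposited RPKM under headers that say counts. Value times length, divided by a step found for each column, was whole for 100% of values (within 0.01 read), which returned reads. Deposited lengths cancel in an allele ratio; levels were not compared between genes.

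TMM-scaled reads were tested with limma 3.58.1 in R 4.3.3 on log2(CPM + 0.1), with variances following the trend on abundance, a block for the library and Benjamini-Hochberg adjustment over 15509 genes. The pseudocount shrinks ratios of low genes. Left out were 1570 rows of the Y chromosome. Prior degrees of freedom were infinite, so genes of like abundance share 1 spread. The block follows from both allele columns of a library coming from the same RNA; across genes, the library differences of the alleles correlated at 0.08. The libraries' total reads per gene, both alleles together, differed beyond sampling noise (chi-square of 28 per degree of freedom). That value does not measure a difference in allele shares. The code was tested on simulated data.

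Transcripts of GENCODE M21 gave shared 100-base stretches, fingers and KRAB cores (a residue pattern from the conserved aspartate to the conserved glutamate and tryptophan of the A box). Named genes, 46 members, were the 10 called members of largest ratio each way with at least 100 reads in each library, the 6 with most reads, the called members and the most-read member of each cluster with at least 2 tested, members of known role, and any read from 1 allele alone at 20 reads or more. Members and lists were chosen with earlier results of these data known.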

Additional observations from a re-analysis of the deposited data

How the results depend on the processing

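The counts of 20 members higher from 129 and 25 from cas stayed within 1.5 times with pseudocounts of 0.5 and 0.02. They also did so with filters of 50 reads and 1 read, column totals, and an exact binomial test in each library (23 and 19). That test covers counting error only. The libraries' total reads per gene differed beyond it, and whether their allele shares did was not tested. With no replicate block the counts were 12 and 14, and beyond a 1.5-fold difference 7 and 5. With 1 shared library size, 12 were higher from cas. The members' median of -0.13 moved to 0.20 with 1 shared library size and to -0.03 with column totals, and leaving out 1 library gave -0.18 to -0.05. No count of calls without a library exists, since no residual degrees of freedom remain.

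By cluster, 1 shared library size gave 2 higher from 129 for Zfp808 to Zfp934, 2 from cas for Zfp712 to Zfp738, 2 from 129 and 1 from cas for Zfp787 to Zfp772, 1 from cas for Zfp788 to Zfp819, 1 from 129 for Zfp930 to Zfp866, and 1 from 129 and 0 from cas for Zfp872 to Zfp810. Chaining distances of 0.5 and 2 Mb each gave 12 clusters in place of 11. The sign turned with 1 shared library size for Zfp738 (0.01), Zfp979 (0.04), Zfp936 (0.15), Zfp819 (0.01), Zfp710 (0.18) and Zfp827 (0.15). Of the 46 named members, 15 lost the call with no replicate block and 7 with column totals. Each other pseudocount cost 1. Besides the 6 whose sign turned, 6 lost the call with 1 shared library size. These were Zfp706, Zfp748, Zfp809, Zfp932, Zfp954 (adjusted p = 0.053 in limma) and Zfp974. Another 3, Zfp704, Zfp740 and Zfp787, gained a call. Few reads limit Zfp773, Zfp772, Zfp954 and Zfp783.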
